A study of Mus musculus with 11 samples.

Results

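The metallothionein and antioxidant response genes followed here were 10 genes chosen by name: Mt1, Mt2, Mt3, Hmox1, Nqo1, Gclc, Gclm, Srxn1, Txnrd1 and Cat. Each symbol matched 1 row of an RNA-seq table of 37991 mouse genes. They were compared in 11 libraries of C57BL/6J neural stem cells from the frontal cortex of E14.5 embryos (E, embryonic day). Stem cells grown in the NeuroCult proliferation medium were collected at day 0 (NSC, 3 libraries). The other cultures were collected at day 4 of a differentiation medium, and all had been plated on coated flasks. Astrocyte medium was DMEM with 1% N-2, 1% fetal bovine serum and 2 mM GlutaMAX-1 (3 libraries). Neuron medium was Neurobasal with 2% B-27 and 2 mM GlutaMAX-1 (3 libraries). Oligodendrocyte medium was that same mixture plus thyroid hormone (T3, 30 ng/mL; 2 libraries). The group names stand for the medium a culture received. Because no culture stayed in proliferation medium until day 4, time and medium cannot be told apart in the comparisons with NSC. The Astrocyte medium differs from the other 2 in basal medium, supplement and serum together, and these cannot be told apart either. By the labels, added T3 is the single difference between the Neuron and Oligodendrocyte media.

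Metallothioneins are small, cysteine-rich proteins that bind zinc and copper. Mt1 and Mt2 are made in most tissues, and Mt3 mainly in the brain. Zinc activates the transcription factor MTF1, which binds metal response elements in metallothionein promoters, and glucocorticoids also raise Mt1 and Mt2. The other genes serve the thioredoxin, glutathione, heme, quinone and peroxide branches of antioxidant defence. Most of them are known targets of NRF2 (gene Nfe2l2), a factor that is degraded through KEAP1 until electrophiles or oxidants release it and that then binds antioxidant response elements with a small MAF protein. Among other components, B-27 in its standard form holds antioxidants (catalase, superoxide dismutase, vitamin E) and corticosterone, and N-2 holds transferrin, insulin and selenite. These lists are not complete, and a component named for N-2 may also be in B-27. Which form of B-27 was used is not given in the sources used here. Whether B-27 itself brought T3 to the Neuron and Oligodendrocyte media is not given either.

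Levels are in CPM, the reads of a gene relative to all reads of its library, with SD where groups are summarised. Differences are between group means of log2(CPM + 1) with their SE, from 1 limma fit over all libraries and 13342 genes that reached 1 CPM in 2 or more libraries. That scale understates the change of low genes. All 10 genes passed this filter. A gene was called at a Benjamini-Hochberg adjusted p under 0.05 over all 13342 genes. The labels name the replicates biological without giving separate embryos or cultures, so the p-values measure the spread between these samples. Since CPM mixes level and gene length, different genes are not ranked against each other. These are bulk cultures, so more cells of a type and more RNA per cell cannot be told apart.

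An estimate from the spacing of low values puts 49.3 to 66.2 M (mega) reads behind a library. The summed CPM of 4 mature oligodendrocyte markers (Mbp, Mog, Mag, Cnp) was 61.3 to 69.4 in NSC, 279 to 329.6 in Astrocyte, 1338 to 1434 in Neuron and 1216 to 1496 in Oligodendrocyte libraries. The sum of 6 astrocyte markers was 1486 to 1543, 13142 to 14795, 7845 to 8561 and 3075 to 3443 in the same order. Neuron markers (6 genes) summed to 896 to 1177 in the Neuron libraries and 850 to 941 in NSC, so the range in the group named for neurons overlapped that of the stem cells. Microglial markers (6 genes) summed to at most 1.32 CPM, and Itgam was at 0 in every day 4 library. The part of these cell type differences in the results below was not tested.

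Day 4 cultures held far more metallothionein RNA than the stem cells in every medium, and all 7 antioxidant genes were called higher in Oligodendrocyte medium than in either other day 4 medium. Hmox1, Nqo1, Gclc, Gclm, Srxn1 and Txnrd1 were called higher in Astrocyte than in Neuron medium, with the Gclm call lost under another scaling, while Cat was not. Against NSC, 9 of the 10 genes were called higher in Astrocyte libraries, where 48% of all genes tested were called higher. None was called lower, against 35.6% of all genes, and the 9 were all at least 2-fold higher, against 21.4%. In Neuron libraries 9 were called higher (43.5% of all genes) and Txnrd1 was called lower (39.6%), with 6 at least 2-fold higher (17.9%). In Oligodendrocyte libraries all 10 were called higher (48.1%), none lower (32.2%), and all 10 at least 2-fold higher (21.2%). The median log2 difference of the 10 genes was 2.14, 1.60 and 3.36 in these 3 comparisons, and 0.15, 0.06 and 0.19 over all genes tested. The 3 comparisons share the NSC libraries. Groups without overlap were common in these data. This held for 86.2%, 83.2% and 89.3% of all genes in Astrocyte, Neuron and Oligodendrocyte against NSC. It held for 63% in Astrocyte against Neuron, 75.7% in Oligodendrocyte against Neuron and 71.7% in Oligodendrocyte against Astrocyte. Separate groups reported below are to be read beside these shares.

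Among the day 4 groups, 9 genes were called higher in Oligodendrocyte than in Neuron libraries (43.9% of all genes) and none lower (23.6%). Of these, 6 were at least 2-fold higher, against 8.96% of all genes. Oligodendrocyte exceeded Astrocyte for 7 genes (28.7%), with none called lower (23.5%) and 4 at least 2-fold higher (4.53%). Astrocyte exceeded Neuron for 8 genes (40.3%), with none called lower (22%) and 3 at least 2-fold higher (6.39%). The medians of the 10 genes were 1.39, 0.84 and 0.65, against 0.15, 0.04 and 0.10 over all genes. Rescaling the libraries by the median of ratios moved the median of all genes by -0.16, -0.07 and -0.19 in the Astrocyte, Neuron and Oligodendrocyte comparisons with NSC. The medians of the 10 genes were then 1.97, 1.53 and 3.15. For Oligodendrocyte against Neuron the shift was -0.13 and the median of the 10 genes 1.25. This scaling also evened out the calls over all genes: the share of calls that were higher was 59.9% for Oligodendrocyte against NSC, 65.1% for Oligodendrocyte against Neuron and 64.7% for Astrocyte against Neuron, and 49.7%, 52.4% and 52.7% after it.

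**Figure D1:**
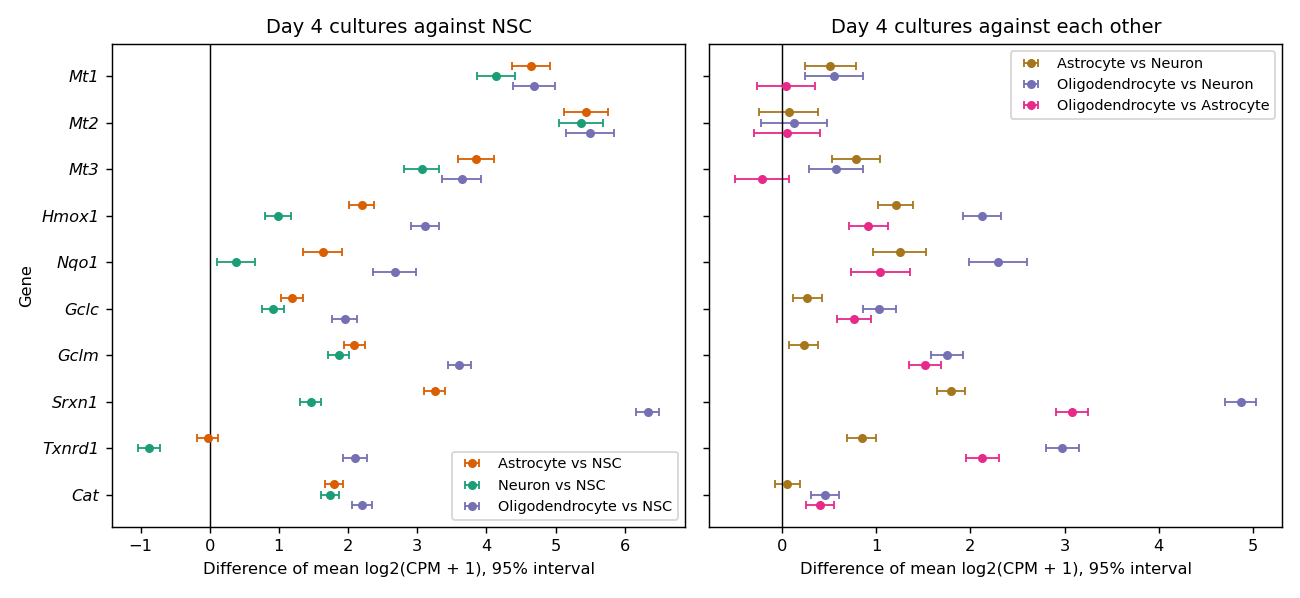
Differences of mean log2(CPM + 1) for each gene, with 95% intervals, for the day 4 groups against NSC (left) and against each other (right). The metallothioneins lie far right of 0 on the left panel and within 0.79 of 0 on the right panel, while Srxn1 in Oligodendrocyte libraries has the largest difference plotted on both panels (6.33 against NSC, 4.87 against Neuron).

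The 3 metallothionein genes lie close together on chromosome 8 in mm9: Mt3 (ENSMUSG00000031760) at chr8:96676507-96678048, Mt2 (ENSMUSG00000031762) at chr8:96696518-96697467 and Mt1 (ENSMUSG00000031765) at chr8:96702989-96704225, all on the plus strand. The 250 bases before the annotated transcription start of Mt1 and Mt2 are shown because both genes rose together and are known MTF1 targets. They come from RefSeq on build GRCm38.p6, at chr8:94178839-94179088 for Mt1 and chr8:94172368-94172617 for Mt2, plus strand, 5′ to 3′. Capitals mark the metal response element core (TGCACNC or TGCGCNC, either strand) and, in Mt2, a match to the antioxidant response element core (TGACNNNGC).
Mt1: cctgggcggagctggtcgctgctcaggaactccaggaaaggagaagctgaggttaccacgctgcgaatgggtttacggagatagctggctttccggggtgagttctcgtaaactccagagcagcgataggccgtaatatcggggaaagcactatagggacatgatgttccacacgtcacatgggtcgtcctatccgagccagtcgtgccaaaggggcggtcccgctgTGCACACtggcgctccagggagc
Mt2: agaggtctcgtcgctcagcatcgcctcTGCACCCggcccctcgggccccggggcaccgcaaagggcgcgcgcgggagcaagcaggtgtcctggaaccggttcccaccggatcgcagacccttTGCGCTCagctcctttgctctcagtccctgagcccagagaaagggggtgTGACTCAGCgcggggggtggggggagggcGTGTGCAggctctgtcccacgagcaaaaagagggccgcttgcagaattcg

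With the 50 bases after the start included, the 300-base window of Mt1 held 3 metal response element cores, that of Mt2 held 4 and that of Mt3 held 1. Only 1 of the Mt1 cores lay before the annotated RefSeq start, and the others began at bases 3 and 21 after it. Where transcription of Mt1 starts in these cells was not tested. The window of Gclm, which is not a metallothionein gene, also held 3, and that of Srxn1 held 1. Among 32851 RefSeq promoter windows of this length, 25.7% held at least 1 such core, 1.97% at least 3 and 0.517% at least 4. The Mt2 match TGACTCAGC also fits the related NF-E2 and MAF type core (TGANTCAGC), which 1.19% of windows held. The letters alone do not show a bound site.

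Mt1 was at 39.81, 37.53 and 46.91 CPM in the NSC libraries. It was at 993.29, 1067.92 and 1110.63 CPM in Astrocyte, 633.85, 925.39 and 693.51 in Neuron, and 1184.0 and 997.6 in Oligodendrocyte libraries. Every day 4 library was thus far above every NSC library, the Neuron libraries were the lowest of the day 4 groups, and Oligodendrocyte and Astrocyte libraries overlapped. The log2 difference from NSC was 4.65 ± 0.13 in Astrocyte (adjusted p = 5.43e-13), 4.13 ± 0.13 in Neuron (adjusted p = 1.95e-12) and 4.69 ± 0.14 in Oligodendrocyte libraries (adjusted p = 2.38e-12). Astrocyte libraries exceeded Neuron by 0.51 ± 0.13 (adjusted p = 0.00314) and Oligodendrocyte libraries exceeded Neuron by 0.55 ± 0.14 (adjusted p = 0.00358). Without Oligodendrocyte replicate 1 the latter difference was 0.43 and missed the threshold (adjusted p = 0.0577). Between Oligodendrocyte and Astrocyte libraries the difference was 0.04, with a 95% interval of -0.26 to 0.35.

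Mt2 was at 13.29, 12.32 and 16.68 CPM in NSC. It was at 615.61, 642.95 and 694.15 CPM in Astrocyte, 509.52, 802.39 and 577.79 in Neuron, and 737.78 and 618.21 in Oligodendrocyte libraries. All day 4 libraries lay far above NSC, and the 3 day 4 groups overlapped one another. The difference from NSC was 5.44 ± 0.15 (adjusted p = 4.74e-13), 5.37 ± 0.15 (adjusted p = 5.77e-13) and 5.50 ± 0.16 (adjusted p = 2.02e-12) in Astrocyte, Neuron and Oligodendrocyte libraries, a CPM ratio of 46.2, 44.7 and 48.1. Among the day 4 groups no difference was called. The 95% interval was -0.24 to 0.39 for Astrocyte against Neuron, -0.22 to 0.48 for Oligodendrocyte against Neuron and -0.30 to 0.41 for Oligodendrocyte against Astrocyte. The lack of a call against Neuron libraries rested on Neuron replicate 2. Without that library, Mt2 exceeded its Neuron level by 0.26 in Astrocyte (adjusted p = 0.0347) and by 0.32 in Oligodendrocyte libraries (adjusted p = 0.0199).

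Mt3, the form best known from neurons and astrocytes, was at 54.99, 52.74 and 61.8 CPM in NSC libraries. It was at 775.56, 829.88 and 877.79 CPM in Astrocyte, 401.74, 603.89 and 453.5 in Neuron, and 719.11 and 709.13 in Oligodendrocyte libraries. The 4 groups did not overlap, in the order NSC, Neuron, Oligodendrocyte, Astrocyte. Between any 2 groups, most genes tested did not overlap either (63% to 89.3%). Mt3 rose over NSC by 3.85 ± 0.12 (adjusted p = 1.78e-12), 3.06 ± 0.12 (adjusted p = 2.06e-11) and 3.64 ± 0.13 (adjusted p = 1.44e-11) in Astrocyte, Neuron and Oligodendrocyte libraries. Astrocyte and Oligodendrocyte libraries exceeded Neuron libraries by 0.79 ± 0.12 (adjusted p = 6.59e-05) and 0.57 ± 0.13 (adjusted p = 0.00178). The last neighbours in the order, Oligodendrocyte and Astrocyte, differed by -0.21 (95% interval -0.50 to 0.07, adjusted p = 0.199), which was not called. In a fit of these 2 groups alone its adjusted p was 0.0383, and it was 0.0244 without Neuron replicate 2.

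**Figure D2:**
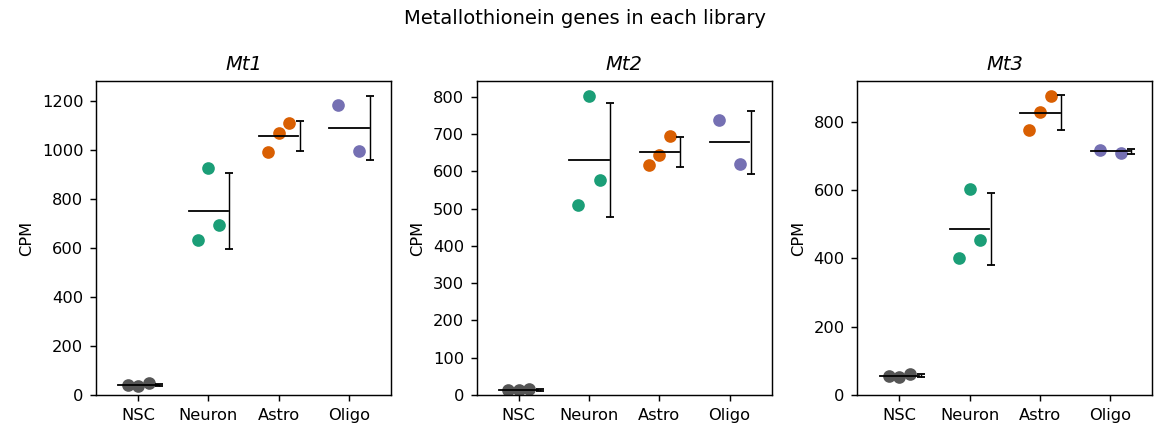
CPM of Mt1, Mt2 and Mt3 in each library (points) by group, with the group mean (line) and SD (bar). The highest NSC point is 61.8 CPM and the lowest day 4 point 401.74 CPM, both for Mt3, and Neuron replicate 2 is the highest Neuron library for each gene.

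Within the Neuron group, replicate 2 had the highest CPM of all 3 metallothioneins. That library also had the largest mitochondrial share of the CPM scale, 8.91%, against 6.91% and 6.82% in the other Neuron libraries. Day 4 libraries ranged from 6.13% to 8.91% and NSC libraries from 4.54% to 4.71%. The part of this share in the results was not tested.

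The 3 metallothioneins did not rise by equal factors. The CPM ratio of Mt1 to Mt2 was 2.95 ± 0.123 (SD, n = 3) in NSC, 1.62 ± 0.0320 (n = 3) in Astrocyte, 1.20 ± 0.0454 (n = 3) in Neuron and 1.61 ± 0.00628 (n = 2) in Oligodendrocyte libraries. The ratio of Mt3 to Mt1 was 1.37 ± 0.0454 in NSC, 0.783 ± 0.00684 in Astrocyte, 0.647 ± 0.0112 in Neuron and 0.659 ± 0.0732 in Oligodendrocyte libraries. Both were thus highest in stem cells, with Mt2 gaining most and Mt3 least. An exact permutation test over the 92400 assignments of the 11 libraries to the 4 groups, which asks only whether the groups differ in any way, gave p = 0.000584 for each (adjusted over 3 ratios, 0.000584). Such a ratio depends on gene lengths, so only its change between groups can be read. Mt1 and Mt2 are similar in sequence, and how reads matching both were counted is not given in the sources used here.

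Of the 22 other genes for metal response and transport, 14 were called higher and 4 lower in Astrocyte libraries than in NSC, 13 and 4 in Neuron libraries, and 17 and 2 in Oligodendrocyte libraries. Over all genes, 48%, 43.5% and 48.1% were called higher and 35.6%, 39.6% and 32.2% lower. The median differences of the list were 0.40, 0.41 and 0.52, against 0.15, 0.06 and 0.19 over all genes. The zinc importer Slc39a12 rose from 1.69 CPM in NSC to 98.7 in Astrocyte, 43.5 in Neuron and 46.6 in Oligodendrocyte libraries (5.21, 4.05 and 4.15 on the log2 scale; adjusted p = 4.41e-14, 3.59e-13 and 1.27e-12). The manganese exporter Slc30a10 was highest in Neuron libraries, at 28 CPM, with a difference from Neuron of -1.12 in Astrocyte (adjusted p = 4.16e-06) and -1.17 in Oligodendrocyte libraries (adjusted p = 6.63e-06). Slc39a14, an importer of zinc, iron and manganese, rose by 1.60 in Astrocyte libraries (adjusted p = 5.46e-09), by 0.92 in Neuron (adjusted p = 2.13e-06) and by 0.47 in Oligodendrocyte libraries (adjusted p = 0.00235). The copper transporter gene Slc31a2 rose by 1.93, 2.11 and 1.89 in the 3 media, with no called difference among them. Named after their values were seen, Mtf1 was at 26.9 CPM in NSC and 24.7 to 34.7 at day 4, and the zinc exporter Slc30a1, a known MTF1 target, rose by 0.35 to 0.53 (adjusted p = 4.19e-05, 1.6e-05 and 2.7e-06). The metallothioneins therefore rose by a larger factor than these 2 genes of the zinc response.

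Because B-27 holds corticosterone, 9 glucocorticoid response genes were read beside Mt1 and Mt2. Against NSC, 7 were called higher and 1 lower in Astrocyte, 8 and 1 in Neuron, and 7 and 1 in Oligodendrocyte libraries. Over all genes, 48%, 43.5% and 48.1% were called higher and 35.6%, 39.6% and 32.2% lower. Named after its values were seen, Fkbp5 was the gene called lower each time. It was at 45.7 CPM in NSC, 12.6 in Astrocyte, 17.6 in Neuron and 28.7 in Oligodendrocyte libraries. In Astrocyte libraries 1 was called higher and 5 lower than in Neuron libraries, against 40.3% and 22% of all genes. In Oligodendrocyte libraries 4 were called higher and 3 lower than in Neuron libraries, against 43.9% and 23.6% of all genes. The share called higher was thus close to that of all genes. Tsc22d3 was at 9.88 CPM in NSC, 28.2 in Astrocyte, 48.3 in Neuron and 40.3 in Oligodendrocyte libraries. Sgk1 was at 12.8, 28.6, 74.0 and 63.9 CPM in that order, with an Astrocyte minus Neuron difference of -1.34 (adjusted p = 2.9e-08). Pdk4 was at 1.24, 22.9, 36.7 and 18.7 CPM. Klf9, also a known target of thyroid hormone, was at 14.1, 25.9, 28.6 and 96.4 CPM and was 1.72 higher in Oligodendrocyte than in Neuron libraries (adjusted p = 2.03e-08).

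Srxn1 and Txnrd1 act in the thioredoxin branch. Srxn1 encodes sulfiredoxin, which restores over-oxidised peroxiredoxins, and Txnrd1 encodes the cytosolic thioredoxin reductase, a selenoprotein. Srxn1 (ENSMUSG00000032802) lies at chr2:151931252-151937112 and Txnrd1 (ENSMUSG00000020250) at chr10:82296696-82360469 in mm9, both on the plus strand. Their promoters and that of Gclm are shown because each of these 3 genes was called at least 2-fold higher in Oligodendrocyte than in Neuron libraries and held a searched motif. The sequences are the 250 bases before a RefSeq start on GRCm38.p6, plus strand, 5′ to 3′: Srxn1 at chr2:152105274-152105523, Txnrd1 (its window 2 of 3 starts) at chr10:82858956-82859205 and Gclm at chr3:122245307-122245556. Capitals mark the NF-E2 and MAF type core and a metal response element core in Srxn1, an antioxidant response element core in Txnrd1, and in Gclm an antioxidant response element core that overlaps a metal response element core, followed by another metal response element core.
Srxn1: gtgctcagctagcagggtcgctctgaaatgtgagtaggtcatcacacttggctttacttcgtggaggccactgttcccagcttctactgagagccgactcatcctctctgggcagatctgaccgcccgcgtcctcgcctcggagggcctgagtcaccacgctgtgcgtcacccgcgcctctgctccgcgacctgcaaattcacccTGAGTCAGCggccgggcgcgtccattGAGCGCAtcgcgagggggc
Txnrd1: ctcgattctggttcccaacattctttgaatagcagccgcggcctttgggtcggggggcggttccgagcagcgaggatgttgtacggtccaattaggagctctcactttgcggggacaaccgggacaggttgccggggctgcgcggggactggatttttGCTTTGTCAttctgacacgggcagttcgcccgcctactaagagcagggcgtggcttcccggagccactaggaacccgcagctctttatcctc
Gclm: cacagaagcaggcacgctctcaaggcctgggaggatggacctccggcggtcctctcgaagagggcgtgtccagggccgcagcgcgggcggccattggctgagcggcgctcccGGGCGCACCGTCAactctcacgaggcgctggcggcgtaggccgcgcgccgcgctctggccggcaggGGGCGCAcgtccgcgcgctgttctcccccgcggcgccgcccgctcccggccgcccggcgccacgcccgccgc

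RefSeq windows were found for 8 of the 10 genes, and none was found for Hmox1 and Gclc. The antioxidant response element core (TGACNNNGC) was present in 12.4% of all windows. The NF-E2 and MAF type core (TGANTCAGC) was present in 1.19%, Srxn1 and Mt2 among them. The 2 cores overlap where a sequence reads TGACTCAGC, as in Mt2. Nqo1 and Cat held none of the 3 motifs in this window, and neither did windows 1 and 3 of Txnrd1. That shows only that these letters are not there.

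Srxn1 had the largest increase of the 10 genes in Oligodendrocyte libraries. It was at 11.82, 11.8 and 12.75 CPM in NSC, 33.67, 34.72 and 37.06 in Neuron, 114.91, 135.53 and 122.21 in Astrocyte, and 1091.53 and 1018.73 in Oligodendrocyte libraries. The 4 groups were fully separate, in that order. Srxn1 rose over NSC by 1.46 ± 0.07 in Neuron (adjusted p = 1.76e-10), 3.25 ± 0.07 in Astrocyte (adjusted p = 7.36e-14) and 6.33 ± 0.08 in Oligodendrocyte libraries (adjusted p = 5.68e-15), where its CPM was 87.0 times that of NSC. It was 4.87 ± 0.08 higher in Oligodendrocyte than in Neuron libraries (adjusted p = 2.32e-13), a CPM ratio of 30.0 between media that differ by added T3. This difference ranked 6 from the top among the 13342 genes, and the difference from NSC ranked 14. Oligodendrocyte exceeded Astrocyte libraries by 3.08 ± 0.08 (adjusted p = 2.13e-11), and Astrocyte exceeded Neuron libraries by 1.79 ± 0.07 (adjusted p = 2.98e-10).

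Txnrd1 alone among the 10 genes fell in a medium. It was at 225.58, 225.11 and 219.09 CPM in NSC, 214.2, 219.6 and 221.37 in Astrocyte, 121.11, 111.72 and 131.36 in Neuron, and 1040.05 and 881.92 in Oligodendrocyte libraries. NSC and Astrocyte libraries overlapped, the Neuron libraries lay below both and the Oligodendrocyte libraries far above. It fell by 0.88 on the log2 scale in Neuron libraries (SE 0.07, adjusted p = 6.48e-08) and rose by 2.10 ± 0.08 in Oligodendrocyte libraries (adjusted p = 2.63e-11). In Astrocyte libraries the difference from NSC was -0.03 (95% interval -0.19 to 0.12, adjusted p = 0.691). That value depended on scaling: it was -0.21 (adjusted p = 0.00944) after median-of-ratios scaling and 0.12 (adjusted p = 0.0688) after quantile normalization. Oligodendrocyte exceeded Neuron libraries by 2.97 ± 0.08 (adjusted p = 1.46e-11) and Astrocyte libraries by 2.13 ± 0.08 (adjusted p = 4.21e-10), and Astrocyte exceeded Neuron libraries by 0.84 ± 0.07 (adjusted p = 3.57e-07).

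Txnrd1 was read beside 10 other selenoproteins. In Oligodendrocyte libraries 4 of these were called higher and 2 lower than in Neuron libraries, against 43.9% and 23.6% of all genes, with a median difference of 0.15 in both. Sepp1, the secreted selenium carrier, had a different order from Txnrd1: 45.7 CPM in NSC, 441 in Astrocyte, 1217 in Neuron and 115 in Oligodendrocyte libraries, an Oligodendrocyte minus Neuron difference of -3.39 (adjusted p = 9.61e-11). Selm was 0.50 (adjusted p = 0.00693) and H47, the symbol the table gives for Selenos, 0.28 higher in Oligodendrocyte than in Neuron libraries (adjusted p = 0.0175). The gene listed as 2700094K13Rik (selenoprotein H) differed from NSC by -2.86, -2.55 and -2.66 in the 3 media, called in each.

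Gclc and Gclm encode the catalytic and the modifier subunit of glutamate-cysteine ligase, the first and rate-limiting enzyme of glutathione synthesis. In mm9 Gclc (ENSMUSG00000032350) lies at chr9:77602342-77642292 and Gclm (ENSMUSG00000028124) at chr3:121948475-121972902, both on the plus strand. Gclm overlaps 2 annotated genes, neither of which exceeded 0.22 CPM in a library. Gclc was at 58.66, 61.63 and 57.84 CPM in NSC, 116.6, 103.14 and 119.88 in Neuron, 137.75, 137.2 and 133.78 in Astrocyte, and 252.14 and 213.4 in Oligodendrocyte libraries. Gclm was at 54.67, 53.39 and 51.95 CPM in NSC, 188.93, 201.41 and 199.49 in Neuron, 216.67, 245.12 and 230.63 in Astrocyte, and 721.01 and 607.53 in Oligodendrocyte libraries. For both subunits the 4 groups were separate and in the same order, NSC, Neuron, Astrocyte, Oligodendrocyte.

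Gclc rose over NSC by 0.92 ± 0.07 in Neuron (adjusted p = 4.13e-08), 1.19 ± 0.07 in Astrocyte (adjusted p = 2.48e-09) and 1.95 ± 0.08 in Oligodendrocyte libraries (adjusted p = 5.72e-11). Gclm rose by 1.86 ± 0.07 (adjusted p = 1.66e-11), 2.09 ± 0.07 (adjusted p = 4.54e-12) and 3.61 ± 0.08 (adjusted p = 1.85e-13). The modifier subunit had the larger rise in each medium. Their CPM ratio, Gclc to Gclm, was 1.11 ± 0.0407 (SD, n = 3) in NSC, 0.592 ± 0.0394 (n = 3) in Astrocyte, 0.577 ± 0.0566 (n = 3) in Neuron and 0.350 ± 0.00110 (n = 2) in Oligodendrocyte libraries. The exact permutation test of any difference between the groups gave p = 0.000519 (adjusted over 3 ratios, 0.000584). Astrocyte and Neuron libraries overlapped in this ratio, while NSC lay above and Oligodendrocyte below them.

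**Figure D3:**
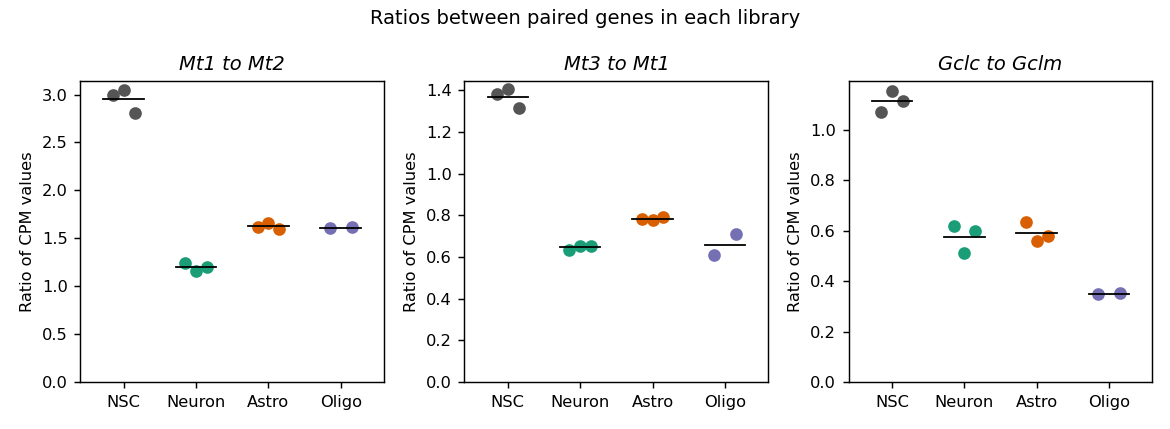
Ratio of the CPM values of Mt1 to Mt2, Mt3 to Mt1 and Gclc to Gclm in each library (points), with the group mean (line). Each ratio is highest in the NSC libraries, and Gclc to Gclm is lowest in the Oligodendrocyte libraries, at 0.350.

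Between the day 4 groups, Gclc was 1.03 ± 0.08 higher (adjusted p = 1.41e-07) and Gclm 1.75 ± 0.08 higher (adjusted p = 7.87e-10) in Oligodendrocyte than in Neuron libraries. Against Astrocyte libraries the Oligodendrocyte values were higher by 0.76 ± 0.08 for Gclc (adjusted p = 4.42e-06) and by 1.52 ± 0.08 for Gclm (adjusted p = 6.16e-09). Astrocyte and Neuron libraries were the closest neighbours, 0.27 ± 0.07 apart for Gclc (adjusted p = 0.00577) and 0.23 ± 0.07 for Gclm (adjusted p = 0.0122). The Gclm call was lost after median-of-ratios scaling (0.13, adjusted p = 0.164) and without Astrocyte replicate 2 (0.18, adjusted p = 0.0641).

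Hmox1 encodes heme oxygenase 1, which breaks heme down to biliverdin, iron and carbon monoxide, and Nqo1 encodes a cytosolic quinone reductase. Both lie on chromosome 8 in mm9, Hmox1 (ENSMUSG00000005413) at chr8:77617490-77624495 on the plus strand and Nqo1 (ENSMUSG00000003849) at chr8:109912125-109927106 on the minus strand. Hmox1 was at 19.18, 19.42 and 20.22 CPM in NSC, 39.35, 36.96 and 43.6 in Neuron, 87.35, 96.72 and 96.17 in Astrocyte, and 198.18 and 158.24 in Oligodendrocyte libraries. The groups did not overlap, in that order. Hmox1 rose by 0.99 ± 0.09 in Neuron (adjusted p = 1.03e-07), 2.19 ± 0.09 in Astrocyte (adjusted p = 2e-11) and 3.11 ± 0.10 in Oligodendrocyte libraries (adjusted p = 2.8e-12). Oligodendrocyte libraries exceeded Neuron by 2.12 ± 0.10 (adjusted p = 7.68e-10) and Astrocyte by 0.92 ± 0.10 (adjusted p = 3.61e-06), and Astrocyte exceeded Neuron by 1.21 ± 0.09 (adjusted p = 5.95e-08).

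Nqo1 was at 4.49, 5.47 and 5.29 CPM in NSC, 6.55, 6.57 and 7.63 in Neuron, 14.41, 19.29 and 20.21 in Astrocyte, and 42.99 and 33.07 in Oligodendrocyte libraries. Its groups also did not overlap, in the same order as Hmox1, although NSC and Neuron lay close. The rise over NSC was 0.38 ± 0.13 in Neuron (adjusted p = 0.0147), 1.63 ± 0.13 in Astrocyte (adjusted p = 4.01e-08) and 2.67 ± 0.14 in Oligodendrocyte libraries (adjusted p = 8.61e-10). The Neuron call was lost after quantile normalization (0.15, adjusted p = 0.301), without NSC replicate 1 (0.31, adjusted p = 0.0672) and without Neuron replicate 3 (0.32, adjusted p = 0.0627). Oligodendrocyte libraries exceeded Neuron by 2.29 ± 0.14 (adjusted p = 1.8e-08) and Astrocyte by 1.04 ± 0.14 (adjusted p = 4.81e-05), and Astrocyte exceeded Neuron by 1.25 ± 0.13 (adjusted p = 2.15e-06).

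Beside Hmox1, 11 other genes of heme and iron handling were followed. In Oligodendrocyte libraries 8 were called higher and 1 lower than in Neuron libraries, against 43.9% and 23.6% of all genes (median 0.63, against 0.15). Against NSC, 6 were higher and 3 lower in Oligodendrocyte libraries, against 48.1% and 32.2% of all genes (median 0.46, against 0.19). In Astrocyte libraries 5 were higher and 3 lower than in NSC, against 48% and 35.6% (median -0.01, against 0.15). In Neuron libraries 4 were higher and 5 lower than in NSC, against 43.5% and 39.6% (median -0.20, against 0.06). Tfrc, the receptor that takes up transferrin, was at 291 CPM in stem cells, 69.9 in Astrocyte, 48.2 in Neuron and 239 in Oligodendrocyte libraries, the last 2.29 above Neuron (adjusted p = 6.77e-10). Fech, which inserts iron into heme, rose by 1.21, 0.74 and 1.28 in Astrocyte, Neuron and Oligodendrocyte libraries (adjusted p = 8.35e-11, 1.86e-08 and 2.06e-10). The copper-binding ferroxidase gene Cp was highest in Astrocyte libraries, at 104 CPM against 16.5 in NSC, 68.8 in Neuron and 47.5 in Oligodendrocyte libraries. Hfe, which takes part in iron sensing, was also highest there, at 61.0 CPM against 3.91, 14.0 and 36.9.

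Cat encodes catalase, which splits hydrogen peroxide in peroxisomes. Cat (ENSMUSG00000027187) lies at chr2:103294006-103325317 on the minus strand in mm9. It was at 63.33, 69.82 and 71.1 CPM in NSC, 225.13, 230.07 and 234.02 in Neuron, 235.82, 246.07 and 233.52 in Astrocyte, and 331.76 and 301.02 in Oligodendrocyte libraries. Neuron and Astrocyte libraries overlapped, NSC lay well below them and Oligodendrocyte libraries above. Cat rose by 1.74 ± 0.06 in Neuron (adjusted p = 7.87e-12), 1.79 ± 0.06 in Astrocyte (adjusted p = 5.2e-12) and 2.20 ± 0.07 in Oligodendrocyte libraries (adjusted p = 3.21e-12). The Oligodendrocyte libraries exceeded Neuron by 0.46 ± 0.07 (adjusted p = 5.59e-05) and Astrocyte by 0.41 ± 0.07 (adjusted p = 0.000258). Between Astrocyte and Neuron libraries the 95% interval of the difference was -0.08 to 0.19 (adjusted p = 0.468).

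**Figure D4:**
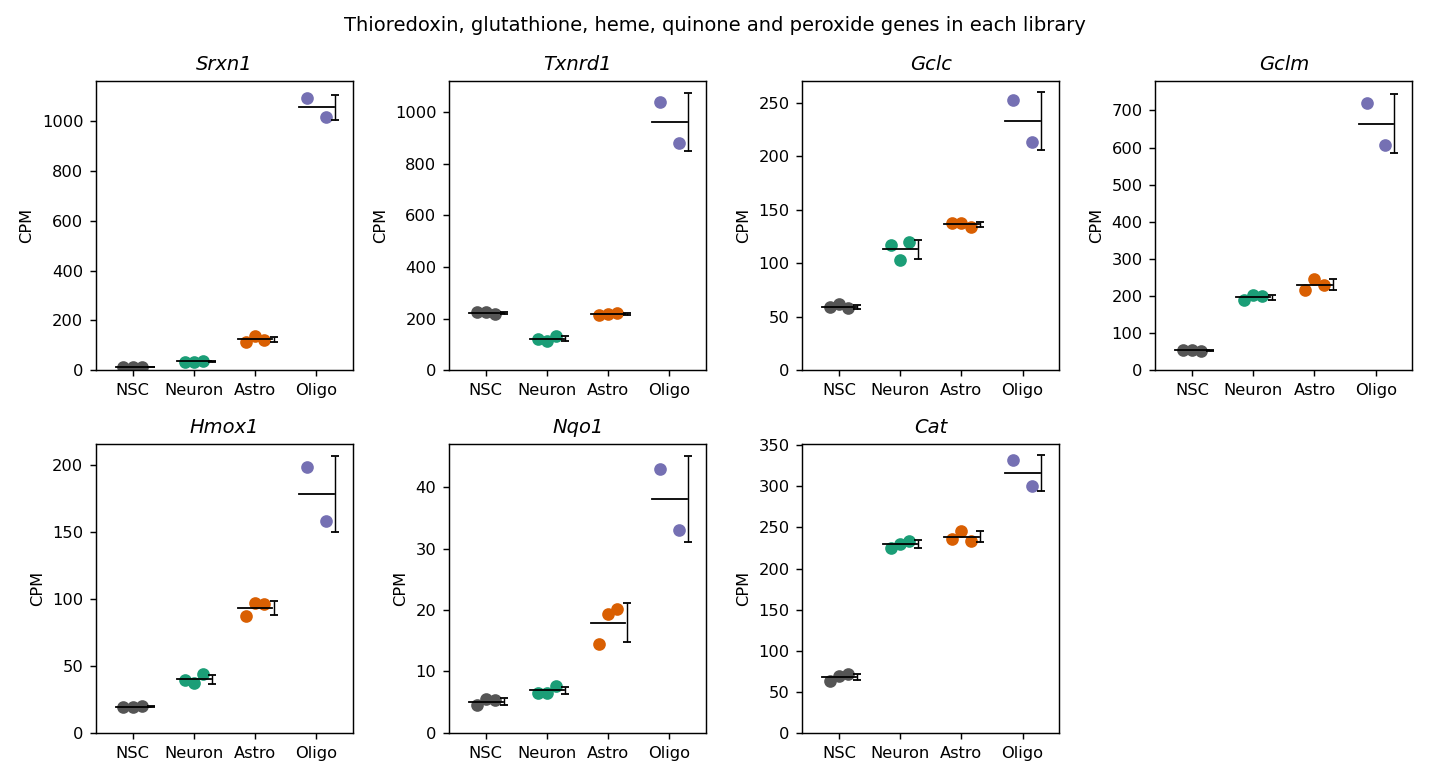
CPM of Srxn1, Txnrd1, Gclc, Gclm, Hmox1, Nqo1 and Cat in each library (points) by group, with the group mean (line) and SD (bar); each panel has its own axis. The 2 Oligodendrocyte libraries are the highest in all 7 panels, and the Neuron libraries lie below NSC only for Txnrd1.

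Of 16 other peroxisome genes, the compartment of catalase, 14 were called higher than NSC in Astrocyte, 15 in Neuron and 14 in Oligodendrocyte libraries, against 48%, 43.5% and 48.1% of all genes. None was called lower, against 35.6%, 39.6% and 32.2% of all genes. The peroxisome division gene Pex11a rose by 1.59, 1.04 and 1.25 in the 3 media, and Pex6, needed for protein import, by 1.63, 1.17 and 1.24. In Oligodendrocyte against Neuron libraries, 5 were called higher and 3 lower, against 43.9% and 23.6% of all genes, with a median of 0.08 against 0.15.

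Among 22 other peroxide and superoxide enzymes, 17 were called higher and 3 lower than NSC in Astrocyte, 12 and 8 in Neuron, and 17 and 3 in Oligodendrocyte libraries. Of all genes, 48%, 43.5% and 48.1% were called higher and 35.6%, 39.6% and 32.2% lower, so the Neuron count lay near that of all genes. The medians of the list were 0.56, 0.24 and 0.62, against 0.15, 0.06 and 0.19. Prdx6, a peroxiredoxin, was at 146 CPM in NSC, 2708 in Astrocyte, 841 in Neuron and 3572 in Oligodendrocyte libraries, and was 2.10 higher in Oligodendrocyte than in Neuron libraries (adjusted p = 7.72e-09). Gpx3, the secreted glutathione peroxidase, fell from 14.2 CPM to 3.24, 4.81 and 1.81. Gpx8, a peroxidase of the endoplasmic reticulum, rose by 1.84, 1.22 and 1.21, and Sesn1 by 1.82, 1.99 and 1.35. The Oligodendrocyte minus Neuron difference of Sesn1 was -0.64 (adjusted p = 5.89e-06).

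A list of 22 other known NRF2 target genes was read beside the antioxidant genes. In Oligodendrocyte libraries 21 were called higher and 1 lower than in NSC, against 48.1% and 32.2% of all genes (median 1.74, against 0.19). Against Neuron libraries 20 were higher (43.9% of all genes), 16 of them at least 2-fold (8.96%), and 1 was lower (23.6%). The median was 1.30, against 0.15. In Astrocyte libraries 15 were higher and 2 lower than in NSC, against 48% and 35.6% of all genes (median 0.68, against 0.15). In Neuron libraries 10 were higher and 6 lower than in NSC, against 43.5% and 39.6%. The count called higher thus lay near that of all genes. However, 8 were at least 2-fold higher, against 17.9% of all genes, and 2 were at least 2-fold lower. The Neuron median was 0.06, as over all genes tested. Astrocyte exceeded Neuron libraries for 14 of the genes (40.3%) and was lower for 2 (22%), with a median of 0.43 against 0.10. Oligodendrocyte exceeded Astrocyte libraries for 20 (28.7%) and was lower for 1 (23.5%), with a median of 1.06 against 0.04. The order Neuron, Astrocyte, Oligodendrocyte of Srxn1, Gclm, Gclc, Hmox1 and Nqo1 thus also held for the medians of this list.

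**Figure D5:**
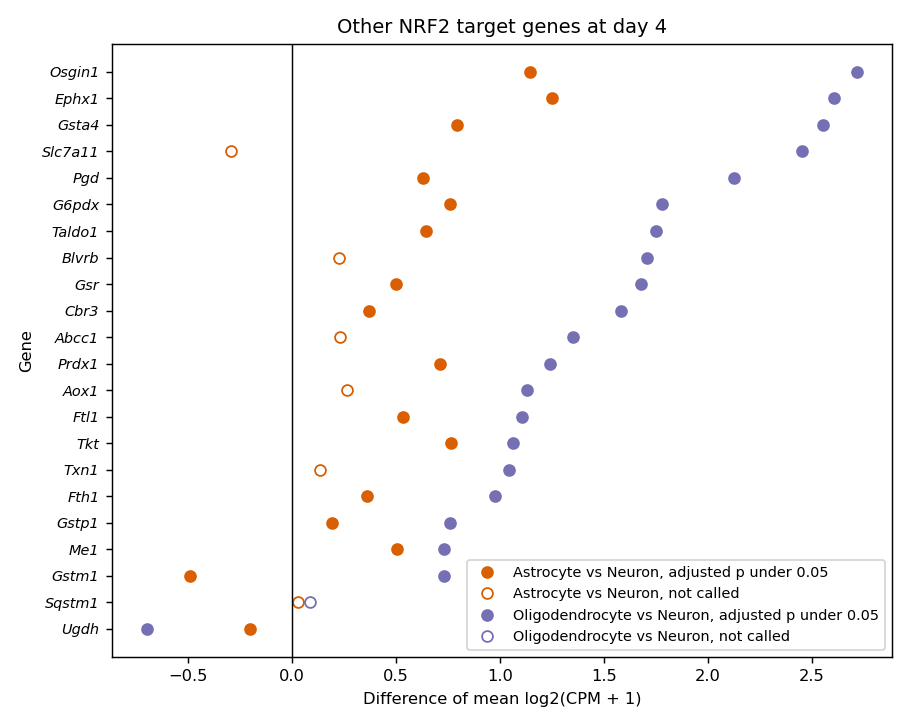
Difference of mean log2(CPM + 1) from Neuron libraries for 22 other NRF2 target genes, in Astrocyte and Oligodendrocyte libraries; filled points had an adjusted p under 0.05. The Oligodendrocyte points lie right of 0 for all genes but Ugdh, and Sqstm1 is the only open Oligodendrocyte point.

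Gsta4, a glutathione transferase that acts on lipid peroxidation products, was at 8.74 CPM in NSC, 141 in Astrocyte, 81.2 in Neuron and 478 in Oligodendrocyte libraries. Gstm1, another glutathione transferase, was at 78.0, 572, 806 and 1336 CPM, with an Astrocyte minus Neuron difference of -0.49 (adjusted p = 0.00204). Osgin1 was at 0.0933, 7.17, 2.70 and 23.4 CPM, and the aldehyde oxidase Aox1 at 2.26, 31.0, 26.4 and 57.8 CPM. Chosen after its values were seen, the cystine importer Slc7a11, which supplies glutathione synthesis, was at 18.6, 34.0, 42.6 and 235 CPM and was 2.45 higher in Oligodendrocyte than in Neuron libraries (adjusted p = 2.79e-08). Txn1, the substrate of thioredoxin reductase and also picked afterwards, was the gene called lower in Oligodendrocyte libraries than in NSC, with a difference of -1.69 (adjusted p = 7.37e-09), and was 1.04 higher in Oligodendrocyte than in Neuron libraries (adjusted p = 2.6e-06). Ugdh, picked likewise, was the gene below Neuron in Oligodendrocyte libraries, with a difference of -0.69 (adjusted p = 2.41e-06).

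The 8 regulators of NRF2 target genes were followed too. Nfe2l2, which encodes NRF2, was at 114 CPM in NSC, 166 in Astrocyte, 136 in Neuron and 210 in Oligodendrocyte libraries, and was 0.63 higher in Oligodendrocyte than in Neuron libraries (adjusted p = 3.63e-06). The small MAF gene Mafg was at 53.9, 80.0, 61.3 and 116 CPM, 0.91 higher in Oligodendrocyte than in Neuron libraries (adjusted p = 2.97e-05). Bach1, a repressor that competes at the same elements and is best known for repressing Hmox1, was highest in Neuron libraries, at 45.0, 48.7, 73.9 and 52.3 CPM in the same order, with a difference from Neuron of -0.49 in Oligodendrocyte (adjusted p = 0.000206) and -0.59 in Astrocyte libraries (adjusted p = 1.61e-05). Nfe2l1 was highest in Astrocyte libraries, at 235 CPM against 150, 162 and 199. Keap1, named after its values were seen, was at 45.0, 54.6, 37.3 and 66.8 CPM in NSC, Astrocyte, Neuron and Oligodendrocyte libraries. It was 0.83 higher in Oligodendrocyte than in Neuron libraries (adjusted p = 3.51e-07). Of the 8 regulators, 4 were called higher and 1 lower in Oligodendrocyte than in Neuron libraries, against 43.9% and 23.6% of all genes. The share called higher was thus near that of all genes, as was the median (0.14, against 0.15). NRF2 is mainly controlled as a protein, which these data did not measure.

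Oligodendrocyte and Neuron libraries, whose media differ by added T3, overlapped in their sum of mature oligodendrocyte markers, while the sum of astrocyte markers was lower in Oligodendrocyte libraries. Sums of 4 oligodendrocyte precursor markers were 848 to 1033 CPM in Neuron and 722 to 774 in Oligodendrocyte libraries, and those of 6 neuron markers 896 to 1177 and 789 to 799.8. Sums of 5 stem and cycling cell markers were 684 to 759 and 836 to 845 CPM, against 3083 to 3215 in NSC. The sum of 6 mesenchymal markers (1 of which reached 1 CPM) was 34.9 to 41.8 CPM in Neuron and 8.27 to 10.1 in Oligodendrocyte libraries, and the part of these sums in the results was not tested.

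The genes whose CPM profile was most like each gene were found over the 11 libraries among 10306 genes with at least 10 CPM in a group mean. These correlations describe 4 groups of libraries and carry no test. Mt1 was closest to Fcgrt and Hrsp12 (Pearson r = 0.999 for both), Mt2 to Sqstm1 (r = 1.000) and Ldhb (r = 0.999), and Mt3 to Anxa7 (r = 0.998) and Tsc22d1 (r = 0.997). Srxn1 was closest to the glycogen branching enzyme Gbe1 (r = 0.997) and Slc43a2 (r = 0.995), and Txnrd1 to Pgd, an NADPH-producing enzyme of the pentose phosphate pathway, and to Nt5e (both about r = 0.993). Gclm was closest to Pde8b (r = 0.997) and Gabra4 (r = 0.996), and Gclc to Taf9b (r = 0.993) and Slc29a3 (r = 0.992). Hmox1 was closest to Ccdc64 (r = 0.997) and Gca (r = 0.996), Nqo1 to Ndrg4 (r = 0.991) and Gas6 (r = 0.989), and Cat to Pcsk6 (r = 0.999) and Mpv17l (r = 0.997). Sqstm1 and Pgd are also on the list of other NRF2 targets. Sqstm1, which encodes p62, was at 76.9 CPM in NSC and at 409, 402 and 426 in Astrocyte, Neuron and Oligodendrocyte libraries with no called difference among the media, as for Mt2. Pgd was at 104, 97.9, 62.7 and 277 CPM, low in Neuron and high in Oligodendrocyte libraries like Txnrd1.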

How the data were processed

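Poly(A) RNA was sequenced strand-specifically on a HiSeq instrument, per the labels' protocols. The authors deposited CPM values for mouse build mm9, with gene coordinates and symbols, per the file headers. The submitters' processing notes name bcl2fastq 1.8.4, TopHat2 2.0.8, HTSeq 0.6.1 and edgeR 3.2.4, without saying whether counting used the strand. Listed genes summed to 75.0% to 80.2% of the full CPM scale per library. Low CPM values were rounded too coarsely to treat as counts, so no count test was run.

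Differences were tested with limma 3.58.1 in R 4.3.3 (trend, 7 residual degrees of freedom) on log2(CPM + 1), in 6 comparisons of the 4 groups, with Benjamini-Hochberg adjustment over genes that reached 1 CPM in 2 or more libraries. The script was tested on simulated data. Gene ratios had an exact permutation test. The members and gene lists were chosen with earlier results of these data known. Named were all 10 members, from each list at most the 4 genes with the largest change from NSC among those with at least 10 CPM in a group mean, and the 2 most similar profiles per member. Alternatives covered scaling, pseudocount, filter, groups in the fit, the replicate block and leaving out each library. Some genes of the lists are not reported here and were left out of the counts and sums.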

Additional observations from a re-analysis of the deposited data

Results flagged for a closer look

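In 24 cases the change of a member from NSC differed between 2 media, by limma's direct test of the day 4 groups (adjusted p under 0.05). Such calls were common among all genes tested. For Astrocyte against Neuron, 40.3% of all genes were called higher and 22% lower. The shares were 43.9% and 23.6% for Oligodendrocyte against Neuron, and 28.7% and 23.5% for Oligodendrocyte against Astrocyte. Each difference is on the log2 scale, and each pair of changes shares the NSC libraries. The differences were spread unevenly over the genes, with Srxn1 and Txnrd1 having the largest and Mt2 none.

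Oligodendrocyte minus Neuron was 4.87 for Srxn1, 2.97 for Txnrd1, 2.29 for Nqo1, 2.12 for Hmox1, 1.75 for Gclm, 1.03 for Gclc, 0.57 for Mt3, 0.55 for Mt1 and 0.46 for Cat. Oligodendrocyte minus Astrocyte was 3.08 for Srxn1, 2.13 for Txnrd1, 1.52 for Gclm, 1.04 for Nqo1, 0.92 for Hmox1, 0.76 for Gclc and 0.41 for Cat. Astrocyte minus Neuron was 1.79 for Srxn1, 1.25 for Nqo1, 1.21 for Hmox1, 0.84 for Txnrd1, 0.79 for Mt3, 0.51 for Mt1, 0.27 for Gclc and 0.23 for Gclm. Txnrd1 fell in Neuron libraries and rose in Oligodendrocyte libraries, so its changes had opposite signs.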

How the results depend on the processing

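The counts of genes called and of members called in the 6 comparisons stayed within 1.5 times their reported value under all alternatives tried, and the 3 ratios kept their direction and call. Leaving out 1 library at a time gave 9 to 10 members called for Neuron against NSC and 7 to 9 for Astrocyte against Neuron. The count was 9 for Astrocyte against NSC each time. Of the 13342 genes tested, 10663 to 11276, 7524 to 8864 and 10729 to 11545 were called in these 3 comparisons. The member counts are to be read beside these. Without an Oligodendrocyte library the other is assumed to vary like the other groups, so such counts are not given for Oligodendrocyte comparisons. With only 2 Oligodendrocyte libraries, the SE of its comparisons is the largest.

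Differences that changed sign were not called as reported. Median-of-ratios scaling gave -0.032 for Mt2 and -0.051 for Cat in Astrocyte against Neuron, and -0.014 for Mt2 in Oligodendrocyte against Neuron. Quantile normalization gave 0.12 for Txnrd1 in Astrocyte against NSC. With 1 library left out at a time, Mt2 ranged from -0.067 (without Neuron replicate 1) to 0.26 (without Neuron replicate 2, then called) in Astrocyte against Neuron and from -0.012 to 0.32 (the same 2 libraries) in Oligodendrocyte against Neuron. In Oligodendrocyte against Astrocyte, leaving out Oligodendrocyte replicate 1 or 2 gave -0.082 or 0.16 for Mt1 and -0.072 or 0.18 for Mt2, and leaving out Astrocyte replicate 1 gave -0.0030 for Mt1. The cause was not tested.

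Same-numbered libraries showed no uniform pairing: over 15 pairs of libraries the correlation of deviations ranged from -0.505 to 0.415, and 6 exceeded 0.1. Deviations within such small groups are tied to each other, so this check cannot show that pairing was absent. With the replicate number as a block, 9, 10 and 10 members were called in Astrocyte, Neuron and Oligodendrocyte against NSC, and 8, 9 and 7 in Astrocyte against Neuron, Oligodendrocyte against Neuron and Oligodendrocyte against Astrocyte, as without it.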
